A study of Sus scrofa with 12 samples.

Results

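Cells dispose of superoxide and peroxides with a small set of enzymes, and the genes described here encode 9 of them. They are the glutathione peroxidases GPX1, GPX3, GPX4, GPX7 and GPX8, the superoxide dismutases SOD1, SOD2 and SOD3, and catalase (CAT). They were chosen by name, and in part because GPX3 was higher with LPC + dantrolene than with LPC in these same libraries. All 9 had a row in the count table of 31908 genes, and all 9 were among the 13216 genes that passed the filter on low counts.

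Superoxide dismutases convert superoxide into hydrogen peroxide. Catalase breaks hydrogen peroxide down in peroxisomes, and glutathione peroxidases reduce peroxides with electrons that come mostly from glutathione. Superoxide and hydrogen peroxide are studied in calcific valve disease because oxidative stress accompanies calcification of the leaflets.

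RNA sequencing was performed on wild-type paVICs, which are interstitial cells grown out of pig aortic valves and cultured on plastic after freezing. Each isolation pooled the valves of several hearts, and 3 isolations were used on separate days, with 1 library per group and isolation (12 libraries, n = 3 per group). Vehicle cells received 0.6% DMSO and 0.1% ethanol for 24 h. LPC cells received 10 μM lysophosphatidylcholine, a lysophospholipid of oxidized lipoproteins, with the DMSO vehicle. Dantrolene cells received 60 μM dantrolene, a ryanodine receptor inhibitor, with the ethanol vehicle, and LPC + dantrolene cells received both agents at these doses. The comparisons ask how each agent, and their combination, changed gene expression.

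Libraries held between 16489684 and 24105935 counts on genes, which the authors had already adjusted for batch. Levels are given as CPM, counts relative to the library total after TMM scaling, and 3 counts correspond to between 0.114 and 0.186 CPM. All 10 markers of valve interstitial cells were detected, and their summed level ranged from 83374 to 99380 CPM with vehicle, 63138 to 89689 with LPC, 58443 to 77977 with dantrolene, and 60107 to 110560 with LPC + dantrolene. These markers did not move as 1 set. With vehicle, LPC, dantrolene and LPC + dantrolene, mean COL1A1 was 22732, 16290, 14473 and 20893 CPM. Mean LUM was 108, 276, 326 and 277 CPM in the same order. Of the 7 leukocyte markers, PTPRC and CD3E had 0 counts in all 12 libraries, while CD14 was at 10.3 to 24.5 CPM and CD68 at 0.76 to 3.17 CPM. Of the 4 red blood cell markers, HBB and AHSP had 0 counts in all libraries and the summed level was at most 0.684 CPM, from HBM in 1 library. Replicate 2 of LPC + dantrolene stood apart, at −46.0 on the first principal component of the 500 most variable genes (31.4% of the variance), where the remaining libraries lay between −16.0 and 20.8. Values without this library are given beside the genes whose call it changed.

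The clearest difference among the 9 genes was in GPX3, which rose with dantrolene in cells that received no LPC. GPX3 (ENSSSCG00000036438, chromosome 16, 71980467 to 71989011 in Sscrofa11.1) encodes the secreted glutathione peroxidase of plasma, a selenoprotein. Its level was 7.11, 14.3 and 7.15 CPM in vehicle replicates 1, 2 and 3, from 149, 245 and 123 counts. With dantrolene it was 22.0, 24.5 and 30.5 CPM, from 402, 642 and 559 counts. Every dantrolene library was above every vehicle library, and GPX3 was 3.10, 1.71 and 4.27 times the vehicle level in isolations 1, 2 and 3. These groups did not overlap for 27.1% of all tested genes, in either direction.

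Compared to vehicle, GPX3 in the dantrolene group increased from 9.52 ± 4.15 to 25.7 ± 4.37 CPM (SD, n = 3). The log2 fold change was 1.43 (standard error 0.35, 95% confidence interval 0.73 to 2.13), which passed in the quasi-likelihood test of edgeR (Benjamini-Hochberg adjusted p = 0.00268). The stated rule that chose GPX3 did not use the vehicle and dantrolene libraries. By unadjusted p it ranked 492 among the 13216 genes, and 8.8% of all tested genes were called in this comparison (7.54% higher and 1.26% lower with dantrolene). The call held in all 19 alternatives, with a log2 fold change between 1.26 and 1.85 and an adjusted p between 0.000104 and 0.0434 (edgeR and DESeq2).

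Markers of other cell types were also read beside this result. The summed level of the 7 endothelial markers ranged from 98.0 to 107.8 CPM with vehicle and from 56.3 to 74.5 CPM with dantrolene. With LPC alone this sum ranged from 75.4 to 78.6 CPM. With LPC + dantrolene it ranged from 62.0 to 71.1 CPM. The summed level of the 7 leukocyte markers ranged from 16.6 to 23.9 CPM with vehicle and from 16.6 to 18.5 with dantrolene. It ranged from 12.6 to 25.3 CPM with LPC and from 18.9 to 28.8 with LPC + dantrolene. That of the 5 smooth muscle markers ranged from 2165 to 4291 CPM with vehicle and from 1695 to 2170 with dantrolene. It ranged from 2069 to 3760 CPM with LPC and from 900 to 2861 with LPC + dantrolene. The part of these levels in the GPX3 result was not tested, and in bulk RNA fewer cells of a type and less RNA per cell cannot be told apart.

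In LPC-treated cells GPX3 is described without a test, since these libraries chose it. With LPC alone it was at 6.15, 12 and 8.13 CPM in replicates 1, 2 and 3, which overlaps the vehicle values. With LPC + dantrolene it was at 24.1, 37.5 and 34.5 CPM, above every LPC library and every vehicle library. Of all tested genes, 9.78% did not overlap between LPC + dantrolene and LPC, and 10.4% between LPC + dantrolene and vehicle. The ratio of GPX3 to the LPC library of the same isolation was 3.92, 3.12 and 4.24, a fitted log2 fold change of 1.87. This is the difference that GPX3 was chosen for, so its size is no support for it.

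GPX3 libraries with and without LPC overlapped in both settings, which is a description of libraries that chose it. LPC libraries were at 0.865, 0.839 and 1.14 times their vehicle partners, with a fitted log2 fold change of −0.12. LPC + dantrolene libraries were at 1.09, 1.53 and 1.13 times their dantrolene partners, with a fitted log2 fold change of 0.32. The choice of GPX3 can have shifted both of these values. In order of mean level, the groups were LPC (8.76 CPM), vehicle (9.52), dantrolene (25.7) and LPC + dantrolene (32.0), and the only neighbours whose libraries did not overlap were vehicle and dantrolene. Without replicate 2 of LPC + dantrolene the log2 fold change from vehicle to dantrolene was 1.49.

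**Figure D1:**
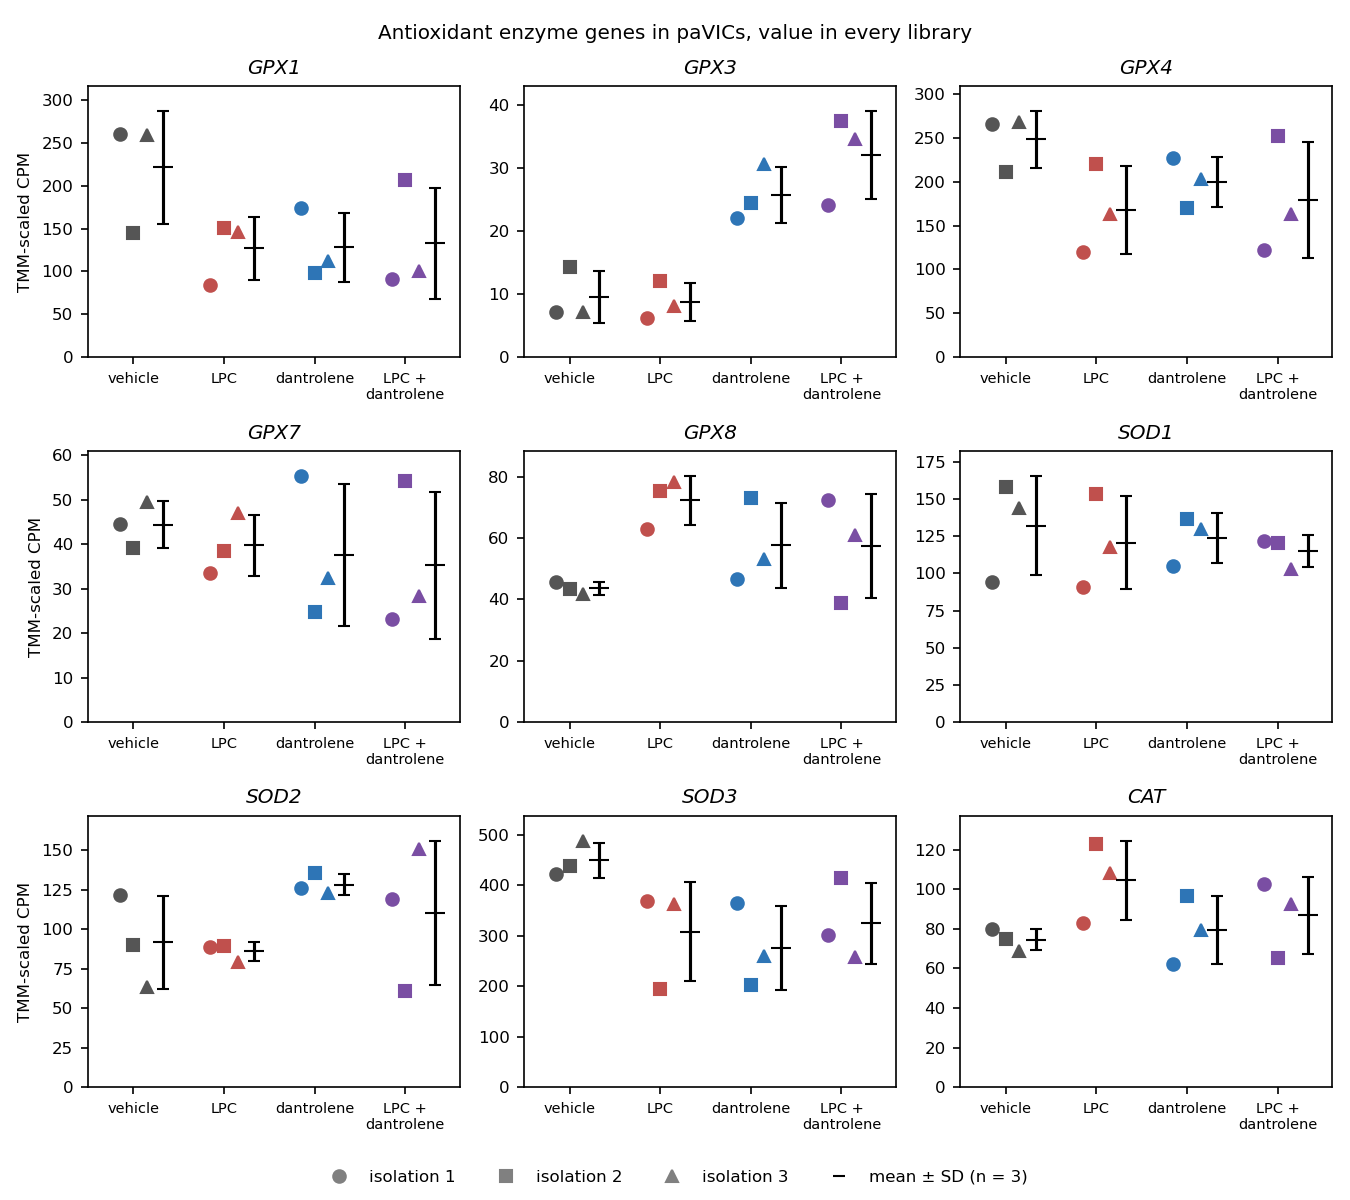
TMM-scaled CPM (y axis, from 0) of each gene in every library by treatment group (x axis). Symbols mark the isolation and bars show the mean ± SD of 3 libraries. GPX3 lies between 22.0 and 37.5 CPM in the 6 libraries with dantrolene and between 6.15 and 14.3 in the 6 without it.

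The remaining 8 genes did not pass the threshold in any comparison in which they were tested. At an unadjusted p under 0.05 there were 2 of 8 with LPC, 2 with dantrolene and 1 with LPC + dantrolene, each compared to vehicle. Among all tested genes these shares were 15.9%, 16.2% and 14.5%, and 8.69% (8.54% higher, 0.144% lower), 8.8% and 7.14% (6.23% higher, 0.9% lower) were called. DESeq2's Wald test also called 0 of the 8 in each of these comparisons. The median log2 fold change of all 9 genes was −0.13 with LPC, −0.09 with dantrolene and −0.20 with LPC + dantrolene, beside −0.18, −0.11 and −0.08 over all genes tested. On total counts alone the medians over all genes were −0.0023, 0.13 and 0.12, so TMM scaling moved all changes by that shift.

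Among the selenium-dependent peroxidases, GPX1 had lower means in each treated group, with libraries that overlapped those of vehicle. GPX1 (ENSSSCG00000033727, chromosome 13, 31916269 to 31917337) is the glutathione peroxidase of the cytosol and mitochondria. It was at 260.4, 145 and 259 CPM with vehicle, 83.7, 150.1 and 146 with LPC, 174, 98.2 and 112 with dantrolene, and 91.3, 207 and 99.9 with LPC + dantrolene. Vehicle replicate 2 was within the range of the treated libraries, and replicate 2 of LPC + dantrolene was above all other treated libraries.

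Relative to vehicle, the log2 fold change of GPX1 was −0.81 in the LPC group (adjusted p = 0.161), −0.79 in the dantrolene group (adjusted p = 0.168) and −0.74 in the combined group (adjusted p = 0.253), none of which passed in edgeR. The unadjusted p was between 0.019 and 0.031 in the same model fitted in edgeR. Without replicate 2 of LPC + dantrolene, the change in that group was −1.16 and passed (adjusted p = 0.00493, edgeR). With only the groups compared in the fit, the change with dantrolene passed at −0.79 (adjusted p = 0.0488, edgeR). All 3 comparisons share the vehicle libraries.

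GPX4 (ENSSSCG00000024052, chromosome 2, 77321568 to 77323931) reduces lipid hydroperoxides within membranes and restrains ferroptosis. Its level was 266, 211 and 269 CPM with vehicle, 120.0, 221 and 163 with LPC, 227, 169.8 and 204 with dantrolene, and 122, 252 and 163 with LPC + dantrolene. The groups overlapped, and the log2 fold changes from vehicle were −0.57, −0.31 and −0.47 with LPC, dantrolene and LPC + dantrolene (adjusted p = 0.436, 0.729 and 0.635, edgeR). The low ends were set by isolation 1 in both groups with LPC, and replicate 2 was the highest library there.

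GPX7 and GPX8 reside in the endoplasmic reticulum and carry cysteine in place of selenocysteine. GPX8 (ENSSSCG00000021973, chromosome 16, 34336154 to 34341861) was at 45.8, 43.3 and 41.6 CPM with vehicle and at 63.1, 75.4 and 78.3 CPM with LPC. These groups did not overlap, as was the case for 27.2% of all tested genes in this comparison. The log2 fold change of 0.73 (95% confidence interval 0.09 to 1.37) did not pass (adjusted p = 0.204, edgeR). It passed without replicate 2 of LPC + dantrolene at 0.80 (adjusted p = 0.0232, edgeR) and with only the groups compared at 0.81 (adjusted p = 0.0282, edgeR).

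With dantrolene GPX8 was at 46.5, 73.1 and 53.2 CPM, and with LPC + dantrolene at 72.3, 38.8 and 61.0 CPM. The dantrolene libraries all lay above vehicle by a narrow margin (log2 fold change 0.40, adjusted p = 0.632, edgeR), whereas replicate 2 of LPC + dantrolene lay below every vehicle library. Dantrolene and vehicle did not overlap for 27.1% of all tested genes. GPX7 (ENSSSCG00000038094, chromosome 6, 159590479 to 159598768) ranged from 39.1 to 49.6 CPM with vehicle and from 23.3 to 55.4 CPM across the treated libraries, so all groups overlapped. Its log2 fold changes from vehicle were −0.16, −0.24 and −0.33 with LPC, dantrolene and LPC + dantrolene (adjusted p = 0.828, 0.797 and 0.835, edgeR).

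The genes GPX2, GPX5 and GPX6 encode the other family members with a row in the table and were too low to be tested. GPX2 had 0 to 5 counts per library, and GPX5 and GPX6 had 0 counts in all 12 libraries, which allows up to 0.114 to 0.186 CPM.

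**Figure D2:**
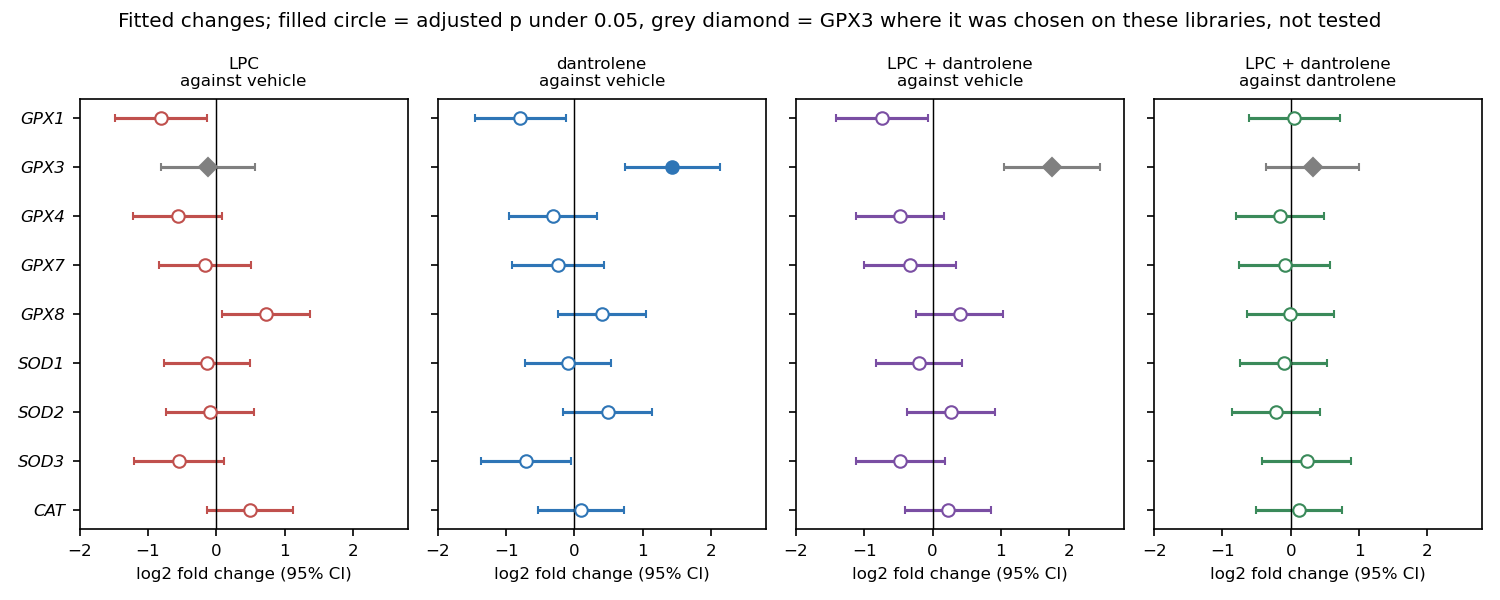
Fitted log2 fold change (x axis) of each gene (rows) in 4 comparisons, with 95% confidence intervals from the edgeR model. The filled circle is GPX3 with dantrolene at 1.43, grey diamonds are GPX3 where its libraries chose it, and open circles did not pass the threshold. The intervals of the grey diamonds are no test of GPX3.

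Of the superoxide dismutases, the extracellular SOD3 was the gene whose vehicle libraries lay apart from all others. SOD3 (ENSSSCG00000028814, chromosome 8, 18796633 to 18802156) encodes the copper and zinc enzyme secreted into the matrix. It was at 423, 438 and 489 CPM with vehicle, 368, 194 and 362 with LPC, 366, 202 and 259.6 with dantrolene, and 301, 414 and 258 with LPC + dantrolene. All 9 treated libraries were below the lowest vehicle library. The share of tested genes without overlap from vehicle was 27.2% with LPC, 27.1% with dantrolene and 10.4% with LPC + dantrolene.

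SOD3 did not pass the test in any of these comparisons. Its log2 fold change from vehicle was −0.55 with LPC (95% confidence interval −1.20 to 0.11, adjusted p = 0.472, edgeR), −0.71 with dantrolene (−1.36 to −0.05, adjusted p = 0.237) and −0.47 with LPC + dantrolene (−1.12 to 0.18, adjusted p = 0.644). The lowest adjusted p in any alternative was 0.0598 for dantrolene (edgeR and DESeq2). Replicate 2 was the lowest SOD3 library with LPC and with dantrolene and the highest with LPC + dantrolene.

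SOD2 (ENSSSCG00000040317, chromosome 1, 7679352 to 7689564) encodes the manganese enzyme of mitochondria. It was at 121.8, 89.9 and 63.2 CPM with vehicle, 89.0, 89.6 and 79.3 with LPC, 126, 136 and 123 with dantrolene, and 119, 61.1 and 151 with LPC + dantrolene. All dantrolene libraries were above all vehicle libraries, and 27.1% of all tested genes did not overlap between these groups in either direction. Vehicle replicate 1 was just below the lowest dantrolene library. SOD2 with dantrolene was also above all LPC libraries, but dantrolene and LPC were not compared in a test. The log2 fold change with dantrolene compared to vehicle was 0.49 (95% confidence interval −0.16 to 1.13, adjusted p = 0.53, edgeR), and with LPC + dantrolene it was 0.27 (adjusted p = 0.884, edgeR) with a range that spanned that of vehicle. Without replicate 2 of LPC + dantrolene, the change in that group was 0.61, with an adjusted p of 0.155 in edgeR.

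The cytosolic copper and zinc enzyme SOD1 (ENSSSCG00000021355, chromosome 13, 195326573 to 195335273) varied least between groups. Its mean was 132 ± 33.6 CPM with vehicle, 121 ± 31.2 with LPC, 124 ± 16.6 with dantrolene and 115 ± 10.8 with LPC + dantrolene (SD, n = 3). The libraries of isolation 1 were the lowest in 3 of the 4 groups. The 95% confidence intervals of its log2 fold changes from vehicle lay between −0.83 and 0.54, so changes of 2-fold were outside them.

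CAT (ENSSSCG00000013302, chromosome 2, 26493664 to 26533881) was at 79.7, 74.8 and 69.1 CPM with vehicle and at 83.2, 122.8 and 108 CPM with LPC. The LPC libraries were all above the vehicle libraries, and the log2 fold change of 0.49 did not pass (95% confidence interval −0.14 to 1.12, adjusted p = 0.52, edgeR). These groups did not overlap for 27.2% of all tested genes. With dantrolene CAT was at 62.5, 96.9 and 79.6 CPM and with LPC + dantrolene at 103, 65.4 and 92.5 CPM, which overlapped vehicle on both sides.

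Comparisons of LPC + dantrolene with each single agent gave no call among the 8 genes other than GPX3. LPC and dantrolene were not compared with each other in a test. Between LPC + dantrolene and dantrolene, 0 of 8 passed, with 0 at an unadjusted p under 0.05 and 0 by DESeq2's Wald test, where 0.0227% of all genes were called in edgeR (0.0151% higher, 0.00757% lower). Their 95% confidence intervals on the log2 scale lay between −0.86 and 0.89. Between LPC + dantrolene and LPC, the comparison that chose GPX3, the fitted values of these genes ran from −0.33 for GPX8 to 0.36 for SOD2, all groups overlapped, and 0.507% of all genes were called (0.219% higher, 0.288% lower).

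The interaction term subtracts the LPC effect in cells without dantrolene from that in dantrolene-treated cells, and 4.65% of all tested genes were called for it (0.159% higher, 4.49% lower). None of the 8 genes passed in edgeR's quasi-likelihood test, with 0 at an unadjusted p under 0.05 and 0 in DESeq2. The values with the lowest unadjusted p were 0.86 for GPX1 (adjusted p = 0.428, edgeR), 0.78 for SOD3 (adjusted p = 0.477, edgeR) and −0.74 for GPX8 (adjusted p = 0.499, edgeR).

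Libraries of one group differed from each other by amounts that were close to the differences between groups. Replicate 2 of LPC + dantrolene was the highest library of its group for GPX1, GPX3, GPX4, GPX7 and SOD3 and the lowest for GPX8, SOD2 and CAT. The median of its absolute deviation from the group mean over the 9 genes was 0.52 on the log2 scale, and it was between 0.08 and 0.38 in the other libraries. Replicate 1 of LPC was the lowest library of its group for 7 of the 9 genes. Without replicate 1 of LPC, the fitted log2 fold change of GPX3 between LPC + dantrolene and LPC was 1.67.

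Over the 12 libraries, CAT and GPX8 had the highest correlation of log2 CPM among the 36 pairs of these genes (Pearson r = 0.91, Spearman rho = 0.90, n = 12 libraries), followed by GPX1 and GPX4 (r = 0.90, rho = 0.94). With the group means removed, r was 0.93 and 0.90. The lowest correlation was between GPX8 and SOD3 (r = −0.72). These values describe the 12 libraries and share their depth, scaling and batch adjustment.

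**Figure D3:**
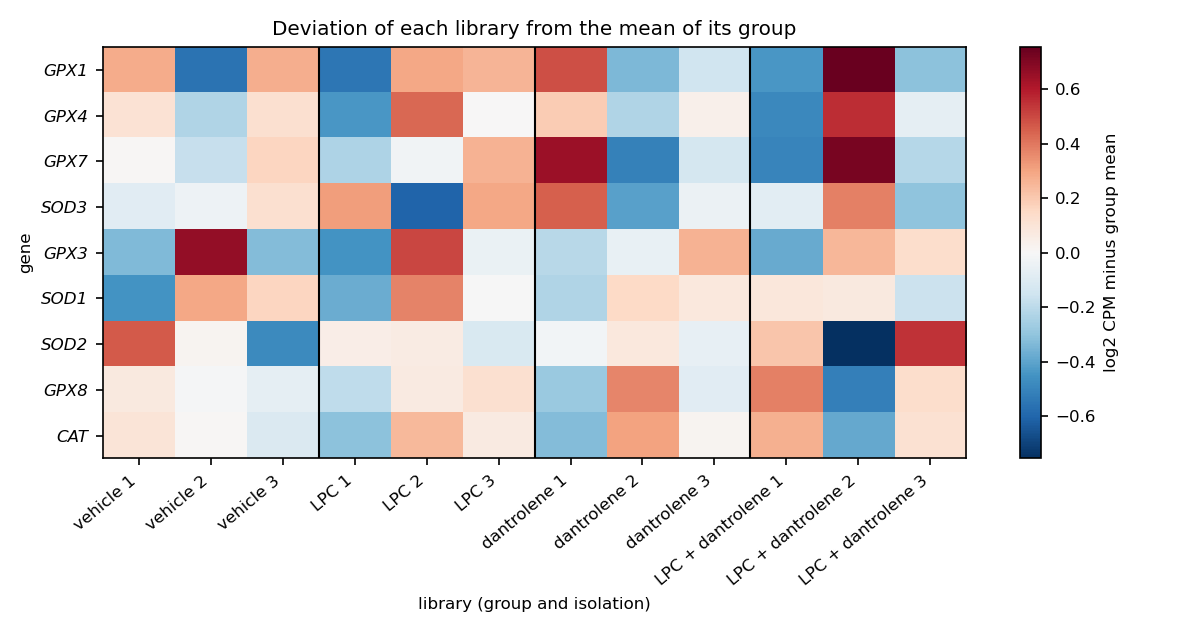
Heat map of log2 CPM minus the group mean (colour, log2 scale) for each gene (rows) in each library (columns, grouped by treatment). Replicate 2 of LPC + dantrolene holds the strongest colours, with a median absolute deviation of 0.52.

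The genes whose pattern over the 12 libraries was most like that of GPX3 were FAM20A (r = 0.93), CYP1A1 (r = 0.89), CYP1B1 (r = 0.89), AHRR (r = 0.87) and CFAP100 (r = 0.86), by Pearson correlation of log2 CPM. CYP1A1 and CYP1B1 encode cytochrome P450 enzymes that metabolize aromatic compounds. CYP1B1 had a mean of 22.7 CPM with vehicle, 36.9 with LPC, 1199 with dantrolene and 1274 with LPC + dantrolene. AHRR, the aryl hydrocarbon receptor repressor, had means of 27.9, 21.5, 81.9 and 84.1 CPM in the same order. FAM20A had means between 0.152 and 1.23 CPM and CFAP100 between 0.791 and 2.39 CPM, so their libraries held few counts. CYP1A1 had means of 0.255 CPM with vehicle and 0.205 with LPC, so few counts there, and 36.4 and 38.4 CPM with dantrolene and LPC + dantrolene. Since GPX3 was chosen for a difference between groups, genes with the same difference have a high correlation with it.

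**Figure D4:**
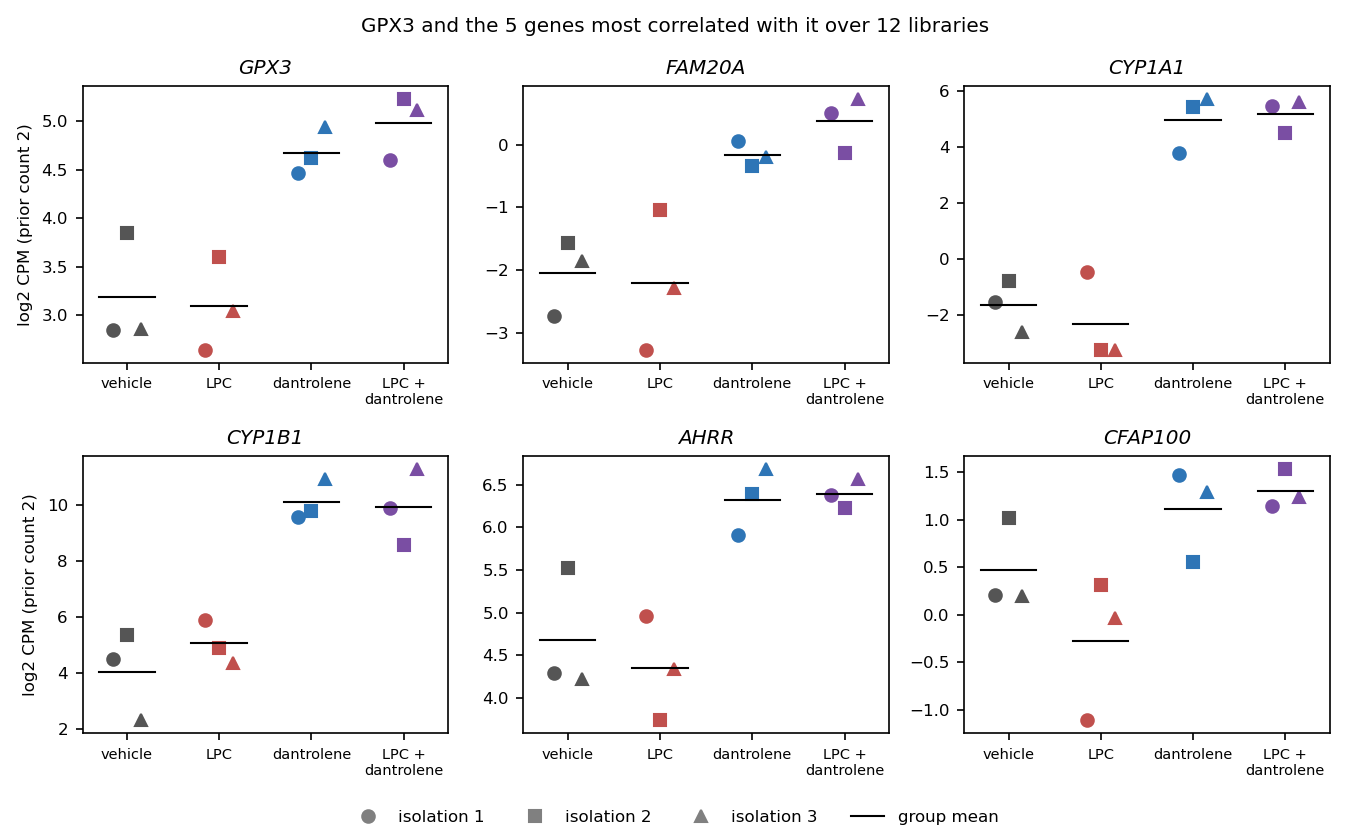
log2 CPM (y axis) of GPX3 and the 5 genes most correlated with it, by treatment group (x axis), with 1 symbol per library and a line at the group mean. In each gene the dantrolene and LPC + dantrolene means lie above the vehicle and LPC means, as for CYP1B1 at 1199 and 1274 CPM against 22.7 and 36.9 CPM.

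Genes that supply or surround these enzymes were counted over 74 listed genes, of which 67 had a row and 61 were tested. Compared to vehicle, 6 rose and 0 fell with LPC, 4 rose and 0 fell with dantrolene, and 3 rose and 1 fell with LPC + dantrolene. NOXA1 was called there as well, but it passed the filter on low counts only through libraries where it was high and is left out of these numbers. This is 6 of 61 beside 8.69% of all tested genes with LPC, 4 beside 8.8% with dantrolene and 4 beside 7.14% with LPC + dantrolene. With the isolation as a replicate block, 3 of the 61 genes were called with LPC, 3 with dantrolene and 1 with LPC + dantrolene. Over all 13216 genes tested, the block called 880, 817 and 618 in the same order, beside 1148, 1163 and 943 without it. The median log2 fold change of the 61 genes was −0.20 with LPC, −0.12 with dantrolene and −0.12 with LPC + dantrolene.

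Glutathione is made from cysteine, glutamate and glycine, and 9 genes of its synthesis and reduction were tested. SLC7A11, the cystine importer that feeds glutathione synthesis, rose from 10.8 ± 3.27 CPM with vehicle to 50.8 ± 9.94 with LPC, 57.6 ± 28.6 with dantrolene and 56.6 ± 32.5 with both agents (SD, n = 3). The log2 fold changes were 2.23, 2.41 and 2.38 (adjusted p = 1.13e-05, 6.34e-06 and 9.56e-06, edgeR), and these calls held in all 19 alternatives each. SLC7A11 was the listed gene with the largest change in each group apart from NOXA1, whose vehicle libraries were at 0.

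GCLM, the modifier subunit of the enzyme that starts glutathione synthesis, was at 27.8 ± 5.28 CPM with vehicle and rose to 58.6 ± 15.8 with LPC (log2 fold change 1.07, adjusted p = 0.0318, edgeR). With dantrolene and LPC + dantrolene it was at 53.4 ± 16.2 and 45.9 ± 21.5 CPM and did not pass (adjusted p = 0.077 and 0.289, edgeR). The call with LPC was lost with the replicate block (adjusted p = 0.0905, edgeR) and without any of replicates 1, 2 or 3 of vehicle or replicates 1 or 2 of LPC (adjusted p from 0.087 to 0.288, edgeR). With dantrolene GCLM passed in 4 alternatives, and without replicate 2 of LPC + dantrolene it passed with dantrolene (adjusted p = 0.00505, edgeR) and with LPC + dantrolene (adjusted p = 0.00332, edgeR). SLC3A2, the partner chain of SLC7A11, had log2 fold changes of −0.37, −0.35 and −0.11 with LPC, dantrolene and LPC + dantrolene and did not pass.

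Of the 6 genes that supply NADPH, which keeps glutathione and thioredoxin reduced, 0 passed in any comparison with vehicle by edgeR's quasi-likelihood test. PGD, which makes NADPH in the pentose phosphate pathway, had log2 fold changes of −0.17, 0.16 and 0.33 with LPC, dantrolene and LPC + dantrolene and did not pass. Of the 14 tested genes of thioredoxins, peroxiredoxins and sestrins, SESN3 was the only one called. SESN3, a stress-inducible sestrin, rose from 7.68 ± 2.58 CPM with vehicle to 17.5 ± 2.04, 17.9 ± 3.92 and 19.0 ± 9.0 with LPC, dantrolene and both (adjusted p = 0.0197, 0.0167 and 0.00996, edgeR). With the replicate block it was not called with LPC or LPC + dantrolene (adjusted p = 0.0555 and 0.0513, edgeR). Without replicate 2 or 3 of vehicle it was called in none of these groups (adjusted p from 0.0675 to 0.186, edgeR). It also lost its call without replicates 1 or 2 of LPC, replicates 2 or 3 of dantrolene, and replicates 1 or 3 of LPC + dantrolene, each in the comparison of that group (adjusted p from 0.0652 to 0.136, edgeR). PRDX1, an abundant cytosolic peroxiredoxin, had log2 fold changes of −0.33, 0.36 and 0.31 and did not pass.

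Selenium reaches GPX1, GPX3 and GPX4 through a dedicated synthesis pathway, in which 8 genes were tested and 0 were called in any comparison with vehicle. SELENOP, the secreted selenium carrier, was at 58.2 ± 29.8 CPM with vehicle and had log2 fold changes of 0.20, 0.34 and −0.36. Among 8 other selenoproteins, SELENOI, a phospholipid synthesis enzyme, rose with LPC (log2 fold change 1.17, adjusted p = 0.024, edgeR) and dantrolene (1.11, adjusted p = 0.0363, edgeR). MSRB1, which repairs oxidized methionine, fell from 83.8 ± 20.5 CPM with vehicle to 39.7 ± 8.41 with LPC + dantrolene (log2 fold change −1.08, adjusted p = 0.0271, edgeR). SELENOI lost both calls with the replicate block (adjusted p = 0.0717 and 0.0825, edgeR), and MSRB1 lost its call with the block (adjusted p = 0.0762, edgeR) and on total counts alone (adjusted p = 0.121, edgeR). With LPC, SELENOI also lost its call without replicates 2 or 3 of vehicle or any LPC replicate (adjusted p from 0.0792 to 0.194, edgeR), and with dantrolene without any vehicle replicate, replicates 1 or 2 of LPC, or replicates 2 or 3 of dantrolene (adjusted p from 0.0544 to 0.266, edgeR). With LPC + dantrolene SELENOI did not pass unless replicate 2 of that group was left out (adjusted p = 0.000473, edgeR). With dantrolene MSRB1 had a log2 fold change of −0.93 and did not pass (adjusted p = 0.0625, edgeR), but it passed without replicate 2 of LPC + dantrolene at −0.86 (adjusted p = 0.0211, edgeR) and without replicate 1 of dantrolene at −1.15 (adjusted p = 0.0432, edgeR). With LPC + dantrolene MSRB1 lost its call without replicates 2 or 3 of vehicle or replicates 1 or 3 of LPC + dantrolene (adjusted p from 0.0546 to 0.328, edgeR).

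Of the 5 genes that handle copper for SOD1 and SOD3, ATP7A was called. ATP7A, the copper pump that loads secreted copper enzymes, rose from 7.11 ± 2.25 CPM with vehicle to 20.4 ± 1.76 with LPC, 20.3 ± 4.99 with dantrolene and 17.5 ± 12.4 with both agents (adjusted p = 0.00381, 0.00466 and 0.0215, edgeR). With LPC + dantrolene the libraries overlapped vehicle, and the call was lost with the replicate block (adjusted p = 0.125, edgeR). Without replicate 2 of vehicle none of the 3 calls held (adjusted p from 0.0756 to 0.191, edgeR). The call with LPC was also lost without replicates 1 or 2 of LPC (adjusted p = 0.05 and 0.0771, edgeR), that with dantrolene without replicate 2 of dantrolene (adjusted p = 0.0901, edgeR), and that with LPC + dantrolene without replicate 3 of vehicle, replicates 1 or 2 of LPC, or replicates 1 or 3 of its own group (adjusted p from 0.0622 to 0.389, edgeR). CCS, the copper chaperone of SOD1, had log2 fold changes of −0.20, −0.25 and −0.42 and did not pass.

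Among 6 tested sources of superoxide and peroxide, ERO1A, an oxidase of the endoplasmic reticulum that yields hydrogen peroxide, rose from 28.8 ± 9.48 to 72.6 ± 10.6 CPM with LPC (log2 fold change 1.33, adjusted p = 0.00756, edgeR). It lost this call without replicates 2 or 3 of vehicle or replicates 1 or 2 of LPC (adjusted p from 0.0627 to 0.11, edgeR). Without replicate 2 of LPC + dantrolene, ERO1A passed with dantrolene (adjusted p = 0.00758, edgeR) and with LPC + dantrolene (adjusted p = 0.000254, edgeR). NOXA1, an activator of NADPH oxidases, had 0, 47 and 12 counts in replicates 1, 2 and 3 of LPC + dantrolene, 13, 1 and 0 counts with LPC, and 0 counts in all vehicle and dantrolene libraries. It is given as a description with no test, since only the libraries where it was high brought it past the filter. NOX4, an oxidase that makes hydrogen peroxide, had log2 fold changes of 0.46, 0.01 and −0.33 and did not pass. Of 5 genes of peroxisome import, which brings CAT into peroxisomes, 0 were called in any comparison with vehicle in edgeR.

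The counts of called genes in these pathways, NOXA1 included, moved with single libraries. The share of all tested genes called with each library left out is not given here, so the counts are not read as particular to these pathways. Without replicate 2 or 3 of vehicle the pathway counts were 1 and 2 with LPC, 1 and 2 with dantrolene, and 1 and 1 with LPC + dantrolene. Without replicate 1 or 2 of LPC, 1 and 1 were called with LPC, and without replicate 2 of LPC 3 with LPC + dantrolene. Without replicates 1, 2 and 3 of dantrolene in turn, 8, 1 and 2 were called with dantrolene. Without replicate 2 of LPC + dantrolene, 9 were called with dantrolene and 9 with LPC + dantrolene, and without replicates 1 and 3 of that group, 2 and 2 were called in it. Between LPC + dantrolene and LPC, and between LPC + dantrolene and dantrolene, 0 of the 61 passed in edgeR (3 and 2 at an unadjusted p under 0.05, and 0 by DESeq2 in both).

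**Figure D5:**
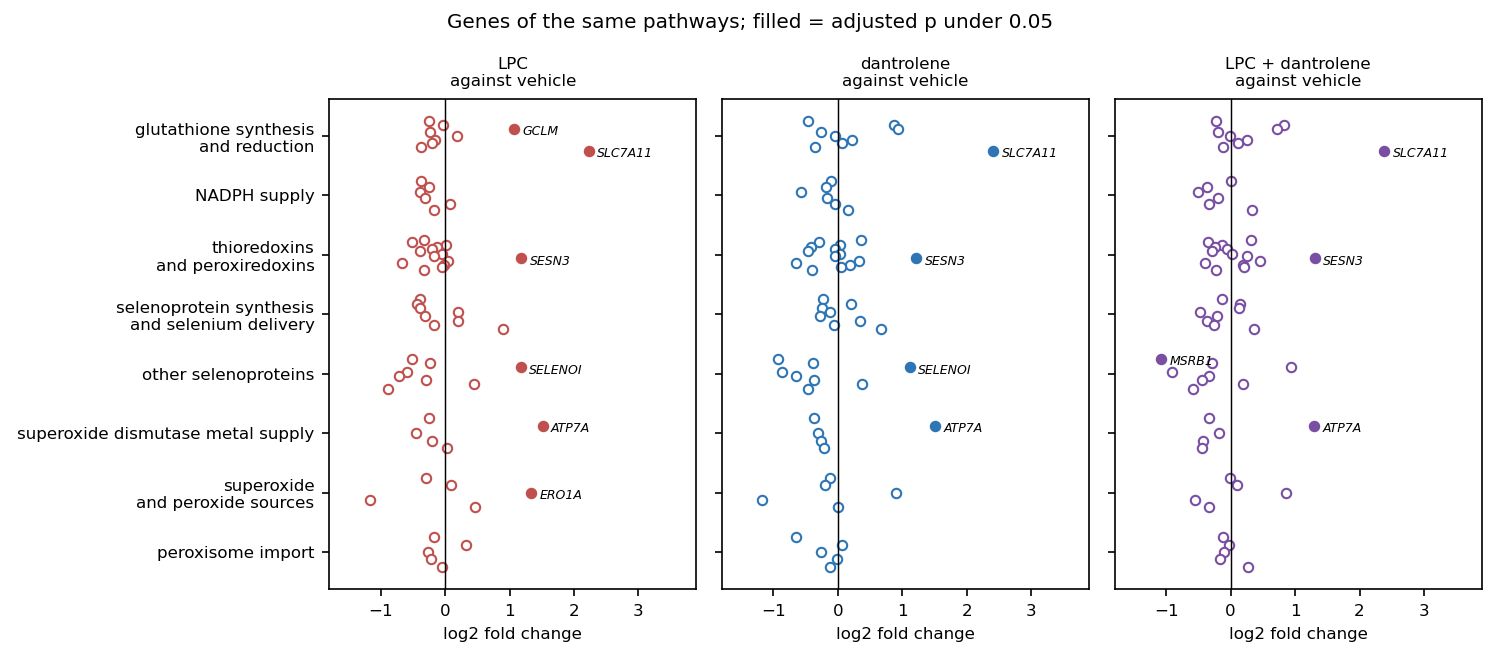
Fitted log2 fold change from vehicle (x axis) of each tested pathway gene by list (rows) in the LPC, dantrolene and LPC + dantrolene groups, without NOXA1, whose vehicle libraries are at 0. Filled points passed an adjusted p under 0.05, with SLC7A11 furthest right at 2.23, 2.41 and 2.38.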

How the data were processed

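RNA sequencing libraries of poly(A) RNA from 12 paVIC samples were analysed. The authors aligned the reads (STAR in the paper's methods, whereas the submitters' processing notes name HISAT2 2.0.5), adjusted the counts for batch with ComBat, and deposited whole-number counts per gene on Sscrofa11.1. The batch variable is not given in the sources used here. Apart from the replicate block, the fits do not take the degrees of freedom of that adjustment into account, and their p-values can be too small. Deposited tables of the authors' own comparisons, made with DESeq2 1.32.0, hold fold changes and p-values and were not used. The counting program is not given in the sources used here.

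Counts were fitted in R 4.3.3 with edgeR 4.0.16, using filterByExpr, TMM factors and 1 quasi-likelihood fit of the 4 groups to the 12 libraries. A gene was called where its p, adjusted by Benjamini-Hochberg over all 13216 genes tested, was under 0.05. The script was tested on simulated data. CPM are TMM-scaled, log2 CPM used a prior count of 2, and intervals are at the 95% level without adjustment for multiple tests. They and the floor of 3 counts cover no processing error. The alternatives were DESeq2 1.42.0, a replicate block for the isolation, each library left out in turn, fits to the compared groups only, RLE factors or library totals as scaling, and a filter of 10 counts per library or none.

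The labels give replicate numbers, and the paper's methods state 1 replicate per group from each isolation, so same-numbered samples were taken as pairs. Deviations from the group means had a median correlation of −0.152 within an isolation (range −0.536 to 0.207) and 0.108 between isolations, as a batch adjustment by isolation would give, so this check cannot tell whether the pairs deviated together before it. The 9 genes, the pathway and marker lists, and the naming rules were chosen with earlier results of these data known. Named were the 9 genes, pathway genes called in any comparison with up to 2 others per list by mean CPM, not all printed, and the 5 genes most correlated with GPX3 and with SOD2. Symbols came from the count table, with 3 listed genes named from a table of gene names, and coordinates came from RefSeq by symbol (9 of 9 matched). Transcript lengths were not used here, so levels are not compared between genes.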

Additional observations from a re-analysis of the deposited data

Results flagged for a closer look

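The effect of LPC differed with and without dantrolene for 2 of the 61 pathway genes, by the interaction term of the edgeR model. For SLC7A11 the interaction was −2.25 on the log2 scale (adjusted p = 0.00369, edgeR), with means of 10.8, 50.8, 57.6 and 56.6 CPM in the vehicle, LPC, dantrolene and LPC + dantrolene groups. It was lower in 3 of 3 isolations and lost its call when replicate 2 of LPC or of dantrolene was left out (adjusted p = 0.0898 and 0.0902, edgeR). For ATP7A it was −1.73 (adjusted p = 0.0437, edgeR), lower in 3 of 3 isolations, with an adjusted p up to 0.25 (edgeR and DESeq2) and a call lost in 10 of 18 alternatives, among them those without any vehicle replicate, replicates 1 or 2 of LPC, replicate 2 of dantrolene, or replicate 2 of LPC + dantrolene (adjusted p from 0.061 to 0.25, edgeR). In both genes the 3 treated groups had similar means, which were above that of vehicle. For ATP7A, however, replicate 2 of LPC + dantrolene was at 3.42 CPM, below the lowest vehicle library at 5.52 CPM. Of all tested genes, 4.49% had a negative interaction that passed.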

How the results depend on the processing

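The rise of GPX3 with dantrolene compared to vehicle held under all 19 alternatives. With the isolation as a replicate block it was 1.50 on the log2 scale (adjusted p = 0.00637, edgeR). Of the other 8 genes, the block called 0 with LPC, 0 with dantrolene and 0 with LPC + dantrolene compared to vehicle, as without it (edgeR's quasi-likelihood test, beside 2, 2 and 1 at an unadjusted p under 0.05 without the block and 0 by DESeq2 in each). Of the 61 pathway genes, the block called 3 with LPC, 3 with dantrolene and 1 with LPC + dantrolene compared to vehicle, and 1 for the interaction. Over all 13216 genes tested the block called 880, 817, 618 and 280 in the same order. It changed no call other than those given beside each gene and those of the ATP7A interaction (adjusted p = 0.0916, edgeR) and of NOXA1. With only the groups compared, 1 of the 9 genes was called with LPC and 2 with dantrolene, and 9 and 1 pathway genes were called with dantrolene and LPC + dantrolene. The calls over all tested genes in those fits are not given here, so these counts are not read as particular to the genes. For the interaction, 1 pathway gene was called on total counts alone, where 2 of all tested genes were called higher and 232 lower. DESeq2 called 1 pathway gene for it, beside 453 of all tested genes. A fit of only the groups compared could not be made for the interaction, which uses all groups.

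With each library left out in turn, the number called of the 9 genes ranged from 0 to 1 with LPC and from 1 to 2 with LPC + dantrolene compared to vehicle, and from 0 to 1 between LPC + dantrolene and LPC. In the latter 2 comparisons these numbers include GPX3, which was chosen on the LPC + dantrolene libraries, so they are no test of it. Among the pathway genes it ranged from 1 to 7 with LPC, from 1 to 9 with dantrolene, from 1 to 9 with LPC + dantrolene, and from 0 to 3 for the interaction. The calls over all tested genes in the same fits are not given here. No value of a called gene changed sign. Between LPC + dantrolene and LPC, 29 of all tested genes were called higher and 38 lower (43.3% higher) after TMM scaling, and 5 and 2 (71.4% higher) on total counts alone, which left too few calls to read a direction from. Between LPC + dantrolene and dantrolene, 2 were called higher and 1 lower after TMM scaling, and 1 and 0 on total counts alone. With 3 libraries per group, the standard errors of the 9 genes limit which differences could pass. Promoter motifs and levels per transcript length were planned and not run.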

Other observations

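The genes whose log2 CPM over the 12 libraries was most like that of SOD2 were ELP4 (Pearson r = 0.93), PGBD1 (r = 0.93), PAPSS2 (r = 0.91), BMPER (r = 0.91) and PTP4A1 (r = 0.90). PAPSS2, which makes the sulfate donor used for proteoglycans, had means of 101, 100.2, 123 and 132 CPM in the vehicle, LPC, dantrolene and LPC + dantrolene groups. BMPER, a secreted regulator of BMP signalling, had means of 4.55, 5.79, 10.4 and 9.71 CPM in the same order. These are descriptions of 12 libraries that share depth and scaling.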
